A study of Arabidopsis thaliana with 18 samples.

Results

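The H3K27me3 landscape of Arabidopsis thaliana shoot apices was compared between the chr4 mutant and the wild type over every peak on chromosomes 1 to 5 of the deposited H3K27me3 table. These were 10194 nuclear peaks, of 26260 peaks listed for H3K27me3 and H3K4me3 together. The peaks came from 6 chromatin immunoprecipitation samples, 3 biological replicates labelled chr4 and 3 labelled WT, among 18 samples in 6 groups. All plants, mutant and wild type alike, had grown for 5 weeks at 21 °C with 8 h of light and 16 h of dark per day, and the harvested tissue was enriched for the shoot apical meristem. The labels name the genotype as chr4 and the series also calls it pkr1. They name no allele, ecotype or transgene.

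The table holds 1 value per genotype pool and no value per replicate, so no difference between the pools could be set against a replicate spread, and no test was made. Its headers name the pools treat and control. No source used here says which of these is chr4 and which is WT, so the comparison is given as treat pool against control pool and no genotype is assigned to a direction. A log2 ratio of treat over control is positive where the treat pool was higher. A limit of 1.5-fold serves below only to describe size. The depth of the pools and the scaling between them are unknown, and in bulk tissue fewer cells with the mark and less of the mark per cell cannot be told apart.

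H3K27me3 is laid down by Polycomb repressive complex 2 and covers genes that are kept silent, often as domains that span a whole gene body and its flanks. In plant apices it is known at floral homeotic genes, seed genes and many transcription factor genes that are off in most cells of the tissue. CHR4 is a chromatin remodelling ATPase of the CHD family, related to PICKLE, a remodeller known to act on H3K27me3-marked genes. Domains can differ in their height, in their extent or in both, and the table gives both for each peak, beside a total signal without a stated formula.

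The nuclear peaks had a median length of 1030 bp and ran from 40 to 26500 bp. Each pool also had its own width within a peak, and that width was 0 exactly where the pool's height was low. The greatest height with a width of 0 was 707.7 in the treat pool and 707.9 in the control pool, and the smallest height with a width above 0 was 708.5 in the treat pool and 708.1 in the control pool. A height of about 708 arbitrary units thus acted as a threshold, which sorts every peak into present in both pools, in the treat pool alone or in the control pool alone. In the treat pool 9100 peaks (89.3%) had a width, against 8373 (82.1%) in the control pool. The summed widths were nearly equal, at 16.3 Mb in the treat pool and 16.4 Mb in the control pool, a ratio of 0.989. The treat pool thus had more peaks with a width. Their median width was 1070 bp in the treat pool and 1250 bp in the control pool, but these medians cover different sets of peaks. Over the 7279 peaks with a width in both pools the median was 1480 bp in the treat pool and 1510 bp in the control pool. Widths over 2000 bp were found at 2742 peaks in each pool.

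Across all peaks the pools differed little at the median. The median total signal was 11697 in the treat pool and 12778 in the control pool, and the median height was 1827 in the treat pool and 1970 in the control pool. The median log2 ratio was -0.14 for total signal and -0.16 for height over the 10114 peaks with a value above 0 in both pools, and -0.01 for width over the 7279 peaks with a width in both. Total signal was listed at 0 for 23 peaks in the treat pool and for 57 in the control pool. The medians of the 5 chromosomes lay between -0.15 and -0.13 for total signal.

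Behind these medians stood many individual differences in both directions. Total signal was at least 1.5-fold higher in the treat pool at 2025 peaks (20.0%) and at least 1.5-fold lower at 1962 peaks (19.4%). Of the higher peaks 1604 had a width in the treat pool alone, and of the lower peaks 982 in the control pool alone. The direction of such peaks is fixed by the definition of their class. Among the 7279 peaks with a width in both pools, 421 (5.78%) were past the limit higher and 980 (13.5%) lower. For height, 1827 peaks (18.1%) were past the limit on the higher side and 1741 (17.2%) on the lower side. For width, 568 peaks (7.80%) were past it on the wider side and 832 (11.4%) on the narrower side. The balance depends on the scaling between the pools. With the median log2 ratio of all peaks set to 0, a shift of 0.14 for total signal, the counts became 2316 higher and 1537 lower for total signal, and 2213 higher and 1223 lower for height. With the peaks of most signal (the upper 25% by mean) set to 0 they became 2466 higher and 1385 lower for total signal, and 2551 higher and 961 lower for height. In the authors' deposited table, 399 of the higher peaks (3.95% of those with a ratio) and 376 of the lower peaks (3.72%) had a false discovery rate for total signal under 0.05.

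Peak length separated these differences into 2 patterns, one of weak short peaks and one of long domains. Among the 2072 peaks of 40 to 200 bp, 1079 were past 1.5-fold higher and 534 past 1.5-fold lower in the treat pool, with a median log2 ratio of 0.68 and an interquartile range of 2.29. In this class 1256 peaks had a width in the treat pool alone, 634 in the control pool alone and only 182 in both. The values of the class thus largely follow from which pool passed the height threshold. Peaks of 210 to 500 bp had a median of 0.18 and an interquartile range of 1.98, and 41.2% of them had a width in both pools. From 510 bp upward the medians were below 0, at -0.19 for 510 to 1000 bp, -0.21 for 1010 to 2000 bp and -0.19 for 2010 to 5000 bp, and the spread narrowed, with interquartile ranges of 0.99, 0.54 and 0.31. Among the 773 domains longer than 5000 bp the median was -0.18 and the interquartile range was 0.22. Of these domains, 1 was past 1.5-fold higher and 18 were past 1.5-fold lower. These counts depend on the scaling. For domains over 5000 bp they were 2 higher and 12 lower with the median of all peaks at 0, and 3 higher and 6 lower with the upper 25% by mean signal at 0. For 2010 to 5000 bp the counts were 43 higher and 163 lower without resetting, 66 higher and 80 lower with the median of all peaks at 0, and 87 higher and 65 lower with the upper 25% at 0. For 510 to 1000 bp they were 248 higher and 441 lower without resetting, and 363 higher and 306 lower with the upper 25% at 0. With that setting all the medians from 510 bp upward turn positive.

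**Figure D1:**
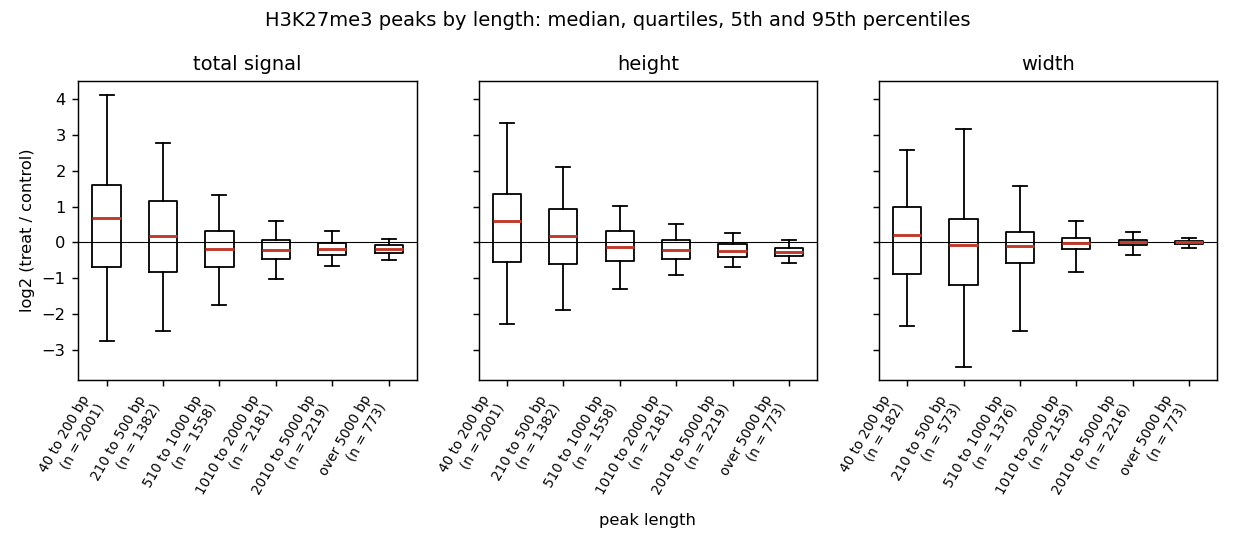
Log2 ratio of the treat pool over the control pool by peak length, for total signal, height and width in separate panels, with the median in red, boxes at the quartiles and whiskers at the 5th and 95th percentiles. Short peaks spread widely around medians above 0 for total signal and height, whereas domains longer than 5000 bp form narrow boxes just below 0 (median -0.18 for total signal and -0.26 for height) and centre on 0 for width. Of the peaks of 40 to 200 bp, 8.78% had a width in both pools. The direction of the others is fixed by the definition of their class.

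In the long domains, the treat pool had lower peaks over the same stretch of chromatin. The 2992 peaks longer than 2000 bp had a median height of 6237 in the treat pool and 7513 in the control pool, with a median log2 ratio of -0.24. Height was lower in the treat pool at 82.9% of them, and total signal at 80.2%. Their widths hardly differed, with a median of 3240 bp in the treat pool and 3280 bp in the control pool. Of the 2989 that had a width in both pools, 2222 (74.3%) agreed in width within 10%, 1476 were wider in the treat pool and 1462 were narrower. In 1163 domains a lower height in the treat pool went with an equal or greater width, and in 1315 it went with a smaller width. Domains longer than 5000 bp showed the lower height most evenly, at 91.2% of domains, with a median of 8894 in the treat pool and 10552 in the control pool. A shift of this kind over most strong domains and a difference in scaling between the pools cannot be told apart. The upper 25% of peaks by mean signal had medians of -0.22 for total signal and -0.28 for height, and with these set to 0 the medians of the long domains turn positive. H3K4me3 peaks longer than 2000 bp had a median log2 ratio of -0.06 over 375 peaks.

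The same narrowing was seen along signal. In the tenth of peaks with most mean signal, the median total signal was 47165 in the treat pool and 56491 in the control pool. Of these peaks 94.8% were lower in the treat pool, a share that depends on the scaling between the pools. Their log2 ratios ran from -0.54 at the 5th percentile to 0.00 at the 95th. In the tenth with least mean signal the median log2 ratio was 1.94. The lowest total signal found in the higher pool of any peak was 6499, so a peak with a small mean is one with little signal in the other pool, and its ratio is large by construction. The widest ratios of all were of this kind. The 3 largest on the higher side had 8200, 8439 and 8925 units in the treat pool against 2.86, 3.43 and 4.07 in the control pool, and the 3 largest on the lower side had 1.65, 2.71 and 2.41 units in the treat pool against 8107, 12118 and 8384 in the control pool. Only 2 of these 6 peaks lay on an annotated gene, AT3G03405 and AT3G02480.

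**Figure D2:**
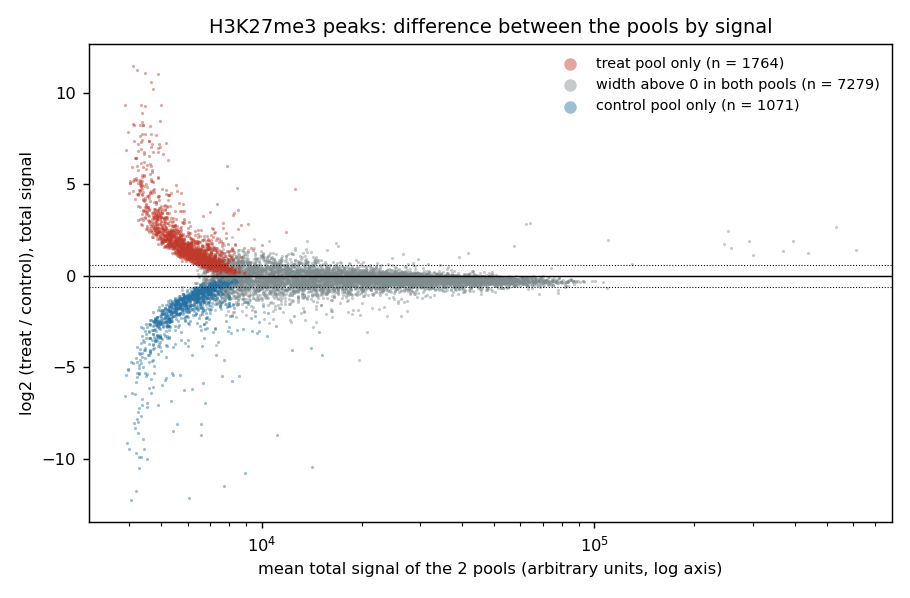
Log2 ratio of total signal (treat over control) against the mean total signal of both pools on a log axis, 1 point per peak, coloured by the pools in which the peak had a width, with dotted lines at 1.5-fold. Peaks present in 1 pool alone fan out at low signal, and the strong peaks present in both pools run in a narrow band just below 0, apart from the rRNA gene peaks at the far right.

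Peaks present in both pools were the larger and genic ones. There were 7279 of them, with a median length of 1650 bp, and 75.6% touched a protein-coding gene. All 3 measures were lower in the treat pool at 3128 (43.0%), and all 3 were higher at 1436 (19.7%). A further 1457 (20.0%) had lower total signal and height but a greater width in the treat pool. Total signal and height moved together over these peaks more closely than height and width, with Spearman's rho of 0.86 for total signal with height, 0.75 for total signal with width and 0.52 for height with width. These are descriptions across peaks, which share the same pools.

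Peaks present in 1 pool alone were small and stood near the threshold. The treat pool alone had a width at 1821 peaks (17.9%) and the control pool alone at 1094 (10.7%). Which pool is higher at such a peak is fixed by how it is defined. The peaks of the treat pool alone had a median length of 130 bp and a median height of 872 in the treat pool and 409.8 in the control pool. Those of the control pool alone had a median length of 160 bp and a median height of 428 in the treat pool and 867 in the control pool. The larger height was below 2 times the threshold at 96.9% of the treat-only peaks and 92.5% of the control-only peaks, compared with 14.6% of the peaks present in both pools. Fewer of them touched a protein-coding gene, 48.4% of the treat-only and 44.7% of the control-only peaks. Among all peaks of 40 to 200 bp this share was 42.3%. Many peaks of 1 pool lay near a peak present in both pools, a set that includes 182 peaks of 40 to 200 bp. Treat-only peaks did so about as often as short peaks in general, and control-only peaks less often. Of all peaks of 40 to 200 bp, 64.4% had a peak present in both pools within 1000 bp. A peak present in both pools was found within 1000 bp of 62.3% of the treat-only peaks and 50.5% of the control-only peaks, and of 41.4% of the peaks present in both.

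The excess of treat-only peaks lay among those whose larger height was below 2 times the threshold, 1764 treat-only and 1012 control-only. It remained among peaks whose higher pool had a total signal at or above the lower quartile, with 612 treat-only and 344 control-only. Above 200 bp there were 565 treat-only and 460 control-only peaks. Of the peaks whose larger height was at least 2 times the threshold, 57 were treat-only and 82 were control-only. By length, 1256 treat-only and 634 control-only peaks were at most 200 bp long, whereas 77 treat-only and 106 control-only peaks were 510 to 1000 bp long. Above 1000 bp there were 7 treat-only and 18 control-only peaks, and none of either above 5000 bp.

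**Figure D3:**
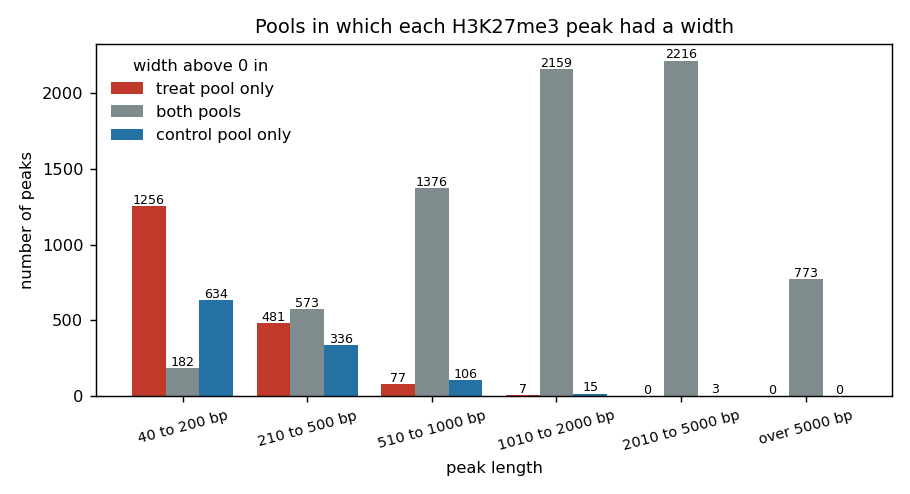
Number of H3K27me3 peaks per length class that had a width in the treat pool alone, in both pools or in the control pool alone. Peaks of 1 pool fill the classes up to 500 bp, where the treat pool has more (1256 against 634 up to 200 bp), and all 773 domains over 5000 bp are present in both pools.

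The few long peaks of 1 pool were listed by length after their values were seen, 6 on each side. In genome build TAIR10, the longest of the treat pool alone lay on AT3G19880, on chromosome 3 (6911680 to 6913080, 1400 bp), with a total signal of 24307 in the treat pool and 889 in the control pool. Its height was 4158 in the treat pool and 422 in the control pool. The next lay on AT1G24130, with a total signal of 12877 in the treat pool and 1132 in the control pool. The other 4 were 1020 to 1160 bp long, and 2 of them lay on no gene.

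The longest peaks of the control pool alone ran from 1600 to 3650 bp. The longest lay on AT4G25320, on chromosome 4 (12953110 to 12956760, 3650 bp), with a total signal of 53.8 in the treat pool and 22194 in the control pool. It was followed by the peak on HAF2, which encodes a TAF1-type histone acetyltransferase, with 2089 in the treat pool and 15476 in the control pool, over 2280 bp. The peak on ORP2A, an oxysterol-binding protein gene, had a height of 667 in the treat pool and 4471 in the control pool. At SPDS2, which encodes a spermidine synthase, the 1840 bp peak on chromosome 1 (26485500 to 26487340) had a height of 76.9 in the treat pool and 4132 in the control pool. That of WRKY54, a WRKY transcription factor gene known from salicylic acid responses and leaf senescence, was nearer the threshold, with a height of 661 in the treat pool and 1466 in the control pool. The sixth lay on AT5G38610. Height in the treat pool was below the threshold at all 6 by the definition of the class. It was closely so at ORP2A and WRKY54 and far below it at SPDS2 and AT4G25320.

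Differences in all 3 measures at once were a small set. Total signal, height and width were all at least 1.5-fold higher in the treat pool at 199 peaks (2.73%) and all at least 1.5-fold lower at 314 (4.31%). With the ratios set to 0 at the median of all peaks, the counts turned round, to 300 higher and 195 lower, and with the upper 25% by mean signal at 0 they were 371 higher and 151 lower. The peaks on the lower side were longer, with a median of 890 bp against 690 bp on the higher side, and 35 of them exceeded 2000 bp compared with 10 on the higher side.

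H3K27me3 peaks covered at least 150 bp of 6773 of 27444 protein-coding genes (24.7%), and the whole body of 2878 of these (42.5%). The peak linked to a gene is the one that covers most of it, so each gene's value below describes the whole peak, also where it reaches past the gene. Of 6763 genes with a ratio, 449 (6.64%) had a total signal at least 1.5-fold higher in the treat pool and 819 (12.1%) at least 1.5-fold lower. With the median of all peaks set to 0 these counts were 584 higher and 569 lower, and with the upper 25% by mean signal at 0 they were 651 higher and 491 lower. The median log2 ratio over genes was -0.18 for total signal and -0.22 for height. Only 220 genes (3.25%) were linked to a treat-only peak and 210 (3.10%) to a control-only peak.

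Past the limit in all 3 measures were the peaks of 168 genes on the lower side and 103 on the higher side. Among the 2024 genes with a symbol and a larger total signal no lower than the median of such values, 48 were on the lower side and 5 on the higher side. With the median of all peaks at 0 these were 33 lower and 8 higher, and with the upper 25% by mean signal at 0 they were 28 lower and 8 higher. The 12 genes with the lowest ratios and the 5 on the higher side are described here. In the authors' deposited table the false discovery rate for total signal was under 0.05 at 12 of these 12 lower genes and at 2 of the 5 higher genes, which were chosen for large ratios at high signal. Over all genes past 1.5-fold in total signal, the same held in the authors' deposited table for 195 of 819 lower and 74 of 449 higher genes.

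The greatest difference in width among these 12, counted in bp, was at MYB53, which encodes an R2R3 MYB transcription factor known from suberin formation. Its domain on chromosome 5 (26063170 to 26070510) was 170 bp wide in the treat pool and filled all 7340 bp in the control pool. Its height was 974 in the treat pool and 6259 in the control pool, and its log2 ratio of total signal was -4.61. No other domain longer than 5000 bp differed as much. The next lowest, on AT2G18140, had a total signal of 21537 in the treat pool and 44224 in the control pool, and a width of 4280 bp in the treat pool and 5560 bp in the control pool. The domain on BKI1, which encodes an inhibitor of the brassinosteroid receptor kinase, was 3130 bp wide in the treat pool and 5020 bp wide in the control pool. A further one, on chromosome 2 (15493730 to 15500110), linked to no protein-coding gene and had a total signal of 12065 in the treat pool and 24392 in the control pool.

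Of the lower genes, UBC11, UBC12 and ATL9 encode proteins of the ubiquitin pathway, a grouping made for order and not tested. UBC11 and UBC12, neighbours on chromosome 3 that encode E2 ubiquitin-conjugating enzymes, share 1 peak (2641560 to 2643920). It was 500 bp wide in the treat pool and 2360 bp in the control pool, with a total signal of 4366 in the treat pool and 37105 in the control pool. ATL9, a RING-type ubiquitin ligase gene, had a height of 1190 in the treat pool and 5356 in the control pool, and a width of 1600 bp in the treat pool and 2620 bp in the control pool. As a ratio, its width differed least among the 12.

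HB24, CLE13 and MEE53 also had narrower peaks in the treat pool. At HB24, a zinc-finger homeodomain gene, total signal was 5696 in the treat pool and 26851 in the control pool, and width was 610 bp in the treat pool and 2400 bp in the control pool. At CLE13, which encodes a secreted signalling peptide of the CLE family, total signal was 6059 in the treat pool and 25227 in the control pool, and width was 430 bp in the treat pool and 1170 bp in the control pool. MEE53, named for maternal effect embryo arrest, kept 20 bp of width in the treat pool, against 920 bp in the control pool, with a height of 768 in the treat pool that was just over the threshold.

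The 5 other lower genes follow by width or total signal. CYSD2, of the cysteine synthase family, had a width of 660 bp in the treat pool and 3730 bp in the control pool. MAP65-9, which encodes a microtubule-associated protein, had 50 bp in the treat pool and 1590 bp in the control pool. PGSIP8, a glycosyltransferase gene of the glycogenin-like family, had 90 bp in the treat pool and 1370 bp in the control pool. The peak of CHX21, a cation/H+ exchanger gene, had a total signal of 7164 in the treat pool and 30252 in the control pool. That of HA4, a plasma membrane H+-ATPase gene, had 3859 in the treat pool and 15314 in the control pool, but it covered only 13.4% of the gene. Peaks on UBC11, UBC12, HB24 and CLE13 also touched an H3K4me3 peak, and those of the other 8 did not. UBC11 and UBC12 count here through 1 shared peak, and 11.5% of all nuclear H3K27me3 peaks touched an H3K4me3 peak.

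The higher side held 5 genes with smaller ratios. The peak on TIP2;3, a tonoplast aquaporin gene, on chromosome 5 (19248330 to 19249490), had a total signal of 19979 in the treat pool and 7156 in the control pool, a log2 ratio of 1.48. Its width was 1160 bp in the treat pool and 660 bp in the control pool. RGTA2, an alpha subunit gene of Rab geranylgeranyl transferase, had 18909 in the treat pool and 7815 in the control pool. The serine carboxypeptidase-like gene scpl28 had 17329 in the treat pool and 7438 in the control pool. BGAL7, a beta-galactosidase gene, had the most signal of the 5, with 32670 in the treat pool and 16604 in the control pool, and its peak covered 23.2% of the gene. ARI13, of the ARIADNE family of RING-type ubiquitin ligases, had 15553 in the treat pool and 9647 in the control pool. None of these 5 peaks touched an H3K4me3 peak, where 11.5% of all nuclear H3K27me3 peaks did, so so few peaks show no difference between the sides.

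**Figure D4:**
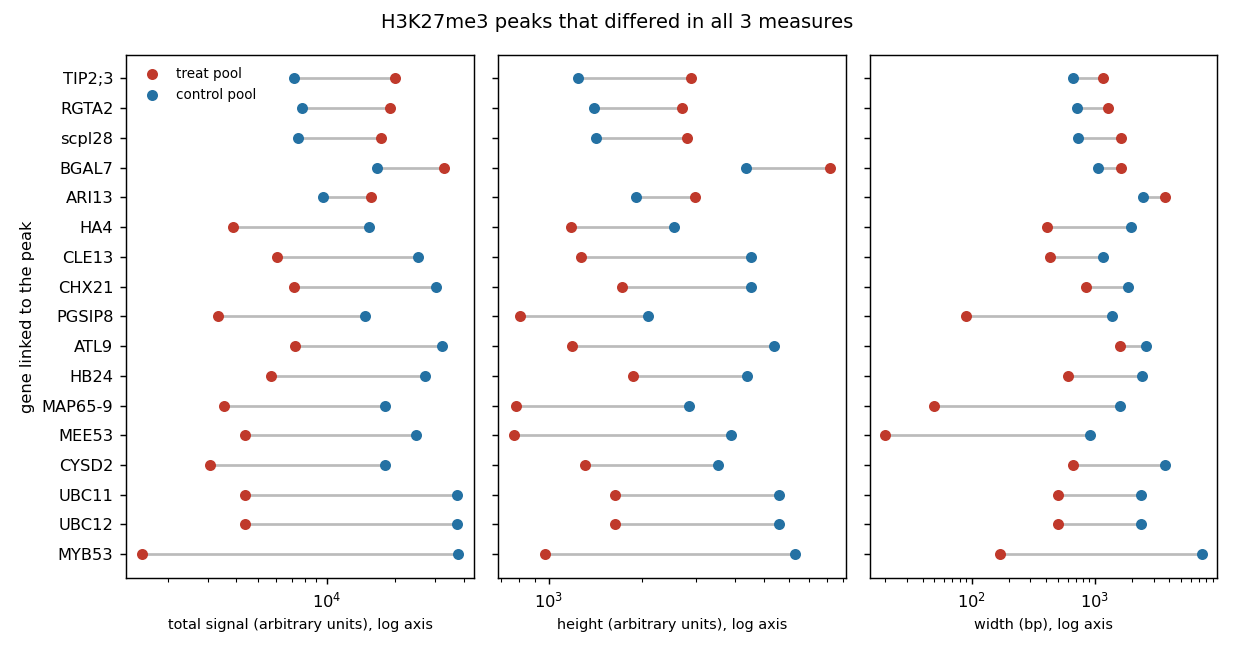
Total signal, height and width of the peaks linked to the 5 higher and 12 lower named genes, on log axes, with the treat pool in red and the control pool in blue joined by a grey line. MYB53 has the longest line for total signal, with 170 bp of width in the treat pool against 7340 bp in the control pool, and the 5 genes from TIP2;3 to ARI13 have the treat pool on the right.

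The 4 longest domains had similar widths in both pools. The longest of all, on chromosome 3 (7723960 to 7750460, 26500 bp), lay on 8 genes from AT3G21930 to AT3G21990 and was 26270 bp wide in the treat pool and 26160 bp in the control pool. Its total signal was 47799 in the treat pool and 50108 in the control pool. A domain of 22020 bp on chromosome 2 held RALFL10, RALFL11, RALFL12 and RALFL13, which encode peptides of the rapid alkalinization factor family, and SHT, a spermidine hydroxycinnamoyl transferase gene. Its total signal was 41365 in the treat pool and 39668 in the control pool. The domain over WRKY31 and RHS14, a root hair specific gene, had 43749 in the treat pool and 49468 in the control pool. That over LEC2, a master regulator of embryogenesis, was 20710 bp wide in the treat pool and 21070 bp in the control pool, with a height of 13499 in the treat pool and 17440 in the control pool. On the higher side, the domain longer than 5000 bp with the largest ratio lay on AT5G38240, with a total signal of 19326 in the treat pool and 12781 in the control pool.

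Genes that control the apex were grouped by role into lists, which are read beside the gene-wide values of 24.7% with a peak, a median log2 ratio of -0.18, 6.64% higher and 12.1% lower. Most lists had long peaks, with a median of 4705 bp for floral identity and 7020 bp for shoot meristem genes, against 2370 bp gene-wide. Long peaks were past the limit less often. The shares were 1.94% higher and 7.35% lower at 2010 to 5000 bp, and 0.129% higher and 2.33% lower above 5000 bp. With the upper 25% of peaks by mean signal set to 0, the list medians above -0.22 turn positive, which are those of the floral identity, flowering-time, root and Polycomb lists. All 16 floral identity and organ genes carried a domain in both pools, and none was past 1.5-fold. Their median log2 ratio was -0.15. LFY, the regulator that starts flower formation, had a total signal of 53334 in the treat pool and 68228 in the control pool, the lowest ratio of the list at -0.36. AP1, a floral meristem identity gene, had 56273 in the treat pool and 66064 in the control pool. SEP3, a MADS-box cofactor of the floral organ genes, had 68953 in the treat pool and 84426 in the control pool, and AP3, a petal and stamen identity gene, had 63693 in the treat pool and 77345 in the control pool. AG, the class C organ identity gene, had 65201 in the treat pool and 67348 in the control pool, and UFO, an F-box cofactor of LFY, had 37929 in the treat pool and 37393 in the control pool. The widths of these domains differed by little, with a median log2 ratio of 0.01.

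Of 19 flowering-time genes 10 carried a peak, again with none past the limit and a median of -0.17. FLC, the floral repressor that vernalization silences, had 71448 in the treat pool and 87091 in the control pool. TEM2, a repressor of FT, had the lowest ratio at -0.37, TSF, the paralog of FT, had -0.32, and SMZ, an AP2-like repressor, had the highest at 0.09. FT itself, the mobile florigen, had 33890 in the treat pool and 33779 in the control pool.

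In the age pathway, of 10 SPL genes, transcription factors mostly under control of miR156, 3 carried a peak and all 3 were past 1.5-fold lower, with a median of -1.02. At SPL11 the 1570 bp peak was in the control pool alone, covered only 13.4% of the gene and touched an H3K4me3 peak. Its total signal was 1739 in the treat pool and 26445 in the control pool. SPL4 had 9395 in the treat pool and 19042 in the control pool, with a width of 910 bp in the treat pool and 1660 bp in the control pool. SPL8, which miR156 does not target, had 65137 in the treat pool and 98015 in the control pool. Its log2 ratio of -0.59 lay at the limit, and with either resetting of the scale 2 of the 3 genes were past it.

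All 10 shoot meristem and boundary genes carried a domain, with a median of -0.40. Every one was lower in the treat pool, as were 4940 of all 6763 genes with a ratio and 87.1% of domains over 5000 bp. Among the 10, KNAT1, WUS and LAS turn positive with the upper 25% of peaks set to 0. The labelled tissue is a meristem-enriched apex, and the mark on STM, WUS and CLV3, which only some cells of an apex express, gives no share of cells. The boundary genes CUC1 and CUC3, NAC transcription factors that separate organs, were past the limit. CUC3 had 11368 in the treat pool and 43316 in the control pool, with a width of 1390 bp in the treat pool and 2060 bp in the control pool. CUC1 had 5000.3 in the treat pool and 11699 in the control pool. Its width was 40 bp in the treat pool and 590 bp in the control pool. The linked peaks covered 37.7% of CUC3 and 30.0% of CUC1. Their paralog CUC2 had 60101 in the treat pool and 74667 in the control pool, with 10710 bp in each. The KNOX homeobox gene KNAT2 had 28290 in the treat pool and 41754 in the control pool. STM, the KNOX gene that maintains the meristem, had 53913 in the treat pool and 69598 in the control pool.

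The leaf polarity list, 9 of 10 genes with a peak, had a median of -0.29 and no gene past the limit. KAN2, which promotes abaxial leaf fate, had the lowest ratio at -0.46, and YAB5 and FIL, of the YABBY family, had -0.34 each. The seed and embryo list, with 15 of 17, had a median of -0.34. SESA1, SESA2, SESA3 and SESA4, which encode albumin storage proteins, share 1 domain with 75994 in the treat pool and 96219 in the control pool, so 4 of the 15 values are the same peak. EM1, a late embryogenesis gene, and OLEO1, an oleosin gene of seed oil bodies, had -0.42 each, SESA5, another albumin gene, had -0.37, and LEC1, an embryo regulator, had the highest ratio at -0.09. The root list, with 8 of 9, had a median of -0.18, from -0.56 at SHR, a radial patterning regulator, to 0.13 at WOX5, the root stem cell niche gene. EXPA7, a root hair expansin gene, had -0.44, and GL2, a root hair patterning regulator, had -0.33.

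Hormone genes gave 2 lists. In the auxin list of YUC genes, PIN genes and PID, 14 of 20 carried a peak, 4 were past 1.5-fold lower and the median was -0.33. With the scale reset either way, 2 were past the limit. YUC11, an auxin biosynthesis gene, had a peak in the control pool alone, with 2925 in the treat pool and 16762 in the control pool. PIN6, an auxin transporter gene, had 25582 in the treat pool and 45718 in the control pool. YUC4 had 24430 in the treat pool and 39192 in the control pool. In the gibberellin list, 13 of 19 carried a peak, 3 were past the limit, all lower, and the median was -0.38. GA3OX1 encodes a gibberellin 3-oxidase that makes the active hormone. Its peak of only 220 bp, on 11.3% of the gene, was in the control pool alone. Total signal there was 928 in the treat pool and 8930 in the control pool. GA3OX4 had 12682 in the treat pool and 27582 in the control pool. RGL3, a DELLA repressor gene, had 4405 in the treat pool and 14487 in the control pool.

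Genes of the Polycomb list, which also holds the demethylase genes REF6, ELF6 and JMJ13 and the remodeller genes PKL and CHR4, mostly lacked the mark. Only MEA and FIS2, subunit genes of the seed form of the complex, had a peak among 14, with log2 ratios of -0.13 and -0.28. CHR4 itself was linked to no H3K27me3 peak, so the mark gives no check of the genotype labels. None of 8 ubiquitously expressed genes, such as ACT2 and UBQ10, was linked to a peak. No member of any of these 11 lists was past 1.5-fold higher in the treat pool. Over all nuclear peaks that share was 1.94% at 2010 to 5000 bp and 0.129% above 5000 bp.

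**Figure D5:**
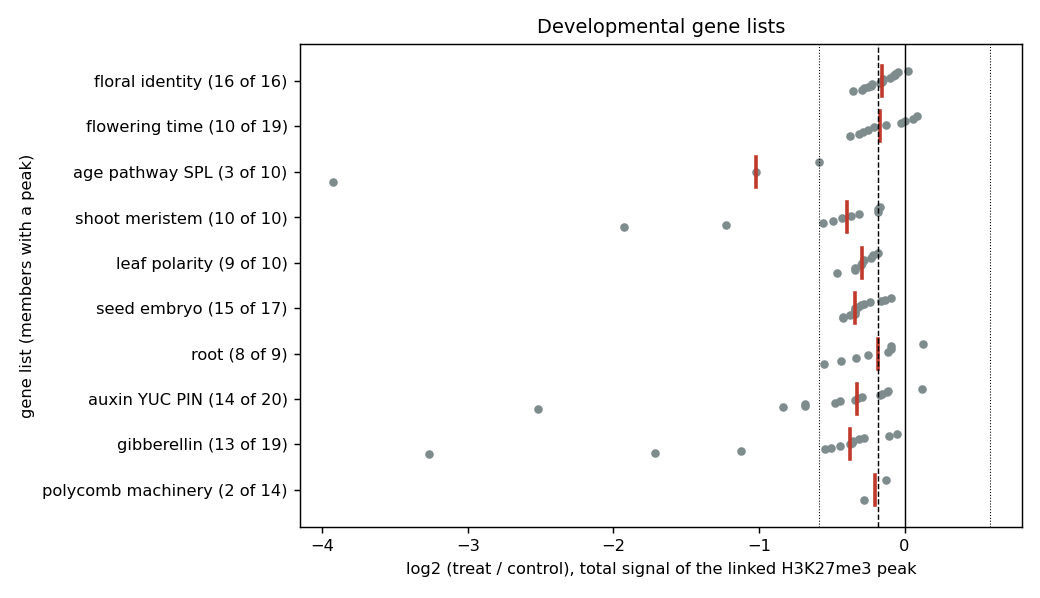
Log2 ratio of total signal (treat over control) of the peak linked to each list member, 1 grey point per gene, with the list median in red, the median of all protein-coding genes dashed at -0.18 and 1.5-fold dotted. The floral identity and flowering-time genes lie in a tight group near the dashed line, and the SPL, meristem, auxin and gibberellin lists have members far to the left.

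Gene families defined by symbol are read beside the same gene-wide shares of 6.64% higher and 12.1% lower. Of 120 MYB genes 81 carried a peak, 1 past 1.5-fold higher (1.23%) and 10 past 1.5-fold lower (12.3%), where the share on the lower side is near the gene-wide one. MYB59, besides MYB53, had a ratio under -4, but its 150 bp peak was in the control pool alone. MYB66, which specifies non-hair root cells and is also called WEREWOLF, was the 1 on the higher side, with 10946 in the treat pool and 5172 in the control pool. Of 224 cytochrome P450 genes 128 carried a peak, 7 past the limit on the higher side (5.47%) and 14 on the lower (10.9%), near the gene-wide shares. With the upper 25% of peaks at 0, the P450 counts turn to 11 higher and 7 lower. CYP84A4 had 10538 in the treat pool and 29653 in the control pool, and CYP94C1, of jasmonate turnover, had 6175 in the treat pool and 20471 in the control pool. The most positive P450 gene, CYP705A30, had a 270 bp peak in the treat pool alone.

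In the families of transcription factors and peptides, few members stand behind each share. Of 67 WRKY genes 38 had a peak, none past the limit on the higher side and 4 on the lower (10.5%), and WRKY54, WRKY40 and WRKY30 of these had control-only peaks. Of 79 NAC genes 41 had a peak, 2 on the higher side (4.88%) and 4 on the lower (9.76%), which turn to 3 higher and 2 lower with the scale reset either way. NAC016, known to promote leaf senescence, had a 960 bp peak in the control pool alone, with 225 in the treat pool and 13108 in the control pool. NAC010 had 10345 in the treat pool and 20059 in the control pool over a domain of 6560 bp. The LBD and CLE families each had 1 member on the higher side and 3 on the lower, of 20 and 21 with a peak. With the scale reset either way these became 1 higher and 2 lower for LBD, and 1 higher and 1 lower for CLE. No expansin gene of the EXPA family was past the limit, and their median was -0.41 over 12 genes. The homeobox WOX genes, with 8 of 11, and the TCP growth regulators, with 8 of 16, also had none past the limit. Of 25 ERF genes 7 had a peak and 2 were past the limit, both lower. ERF12 had 35276 in the treat pool and 65135 in the control pool, and ERF9 had a 340 bp peak in the control pool alone. Among cell wall and wax genes, 1 of 15 KCS, 1 of 17 XTH and 2 of 6 PME genes with a peak were past the limit, all lower. With the upper 25% at 0, none of the KCS and PME genes was past it. XTH7, which encodes a xyloglucan-modifying enzyme, had 1859 in the treat pool and 10343 in the control pool, in a control-only peak.

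Of 9 GSTU genes with a peak, which encode glutathione transferases, GSTU21 and GSTU3 were past the limit on the higher side and none was on the lower. GSTU21 had 8099 in the treat pool and 218 in the control pool, and GSTU3 had 9668 in the treat pool and 707 in the control pool. Both peaks were 220 bp long and in the treat pool alone, a class whose direction is fixed by its definition. Families of broadly expressed genes carried the mark rarely, with none of 13 light-harvesting, 17 histone and 10 proteasome genes, 1 of 22 ribosomal RPL genes and 1 of 112 EMB genes linked to a peak.

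The 6 nuclear peaks with most mean signal lay beside annotated rRNA genes, at the top of chromosome 2 and in a stretch of chromosome 3, where 18 short peaks were listed. Over the 17 with a ratio the median log2 ratio was 1.41, with 13 past 1.5-fold higher in the treat pool and 2 past 1.5-fold lower. The other had 273123 in the treat pool and was listed at 0 in the control pool. The nuclear peak with most mean signal, 220 bp on chromosome 3 (14201130 to 14201350) at AT3G06365, had 888915 in the treat pool and 334237 in the control pool. The next, 150 bp long, had 923601 in the treat pool and 144330 in the control pool. A second group of 90 peaks with a median length of 160 bp lay on chromosome 2 between 3200000 and 3600000, where a copy of mitochondrial DNA is known to sit in the nuclear genome. There 83 peaks were past 1.5-fold higher in the treat pool and none lower, with a median of 1.25. Of the 90, 72 were treat-only, a class whose direction is fixed by its definition, and 18 were present in both pools. Over all nuclear peaks 20.0% were past the limit on the higher side, and 53.9% of those of 40 to 200 bp. Organelle peaks of the same table, which are not nuclear, were also higher in the treat pool, with a median log2 ratio of 1.62 over 32 mitochondrial peaks and 1.53 over 2 chloroplast peaks. Their part in the short nuclear peaks was not tested. Outside both windows, 1748 treat-only and 1094 control-only peaks remained.

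H3K4me3, a mark of active gene starts, was measured in aliquots of the same chromatin, and a smaller share of its peaks was past the limit. Of 15974 nuclear H3K4me3 peaks with a ratio, 559 (3.50%) were past 1.5-fold higher and 784 (4.91%) past 1.5-fold lower in total signal. Their median log2 ratio was -0.08, and 425 were in the treat pool alone and 458 in the control pool alone. The difference between the marks was not tested, since each mark had 1 pool per genotype. An H3K4me3 peak touched 12.7% of the H3K27me3 peaks present in both pools, 7.69% of the treat-only and 9.51% of the control-only peaks. By length the share was 17.9% among domains over 5000 bp and 8.59% among peaks up to 200 bp.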

How the data were processed

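Chromatin from apices was immunoprecipitated for H3K27me3, H3K4me3 and H3 in 3 replicates each of chr4 and WT. Per the submitters' processing notes, Bowtie and TAIR10 were used. The peak caller, the normalization and the scaling between pools are not given in the sources used here, though signal-track names in the labels carry bgsub, Fnor and smooth. Per the file headers, each peak has a height and a total signal, scores in arbitrary units, and a width in bp, for a control and a treat pool, and per the table's name each pool holds 3 replicates. The authors also deposited log2 ratios and a false discovery rate (an adjusted p-value) whose computation is not given in the sources used here.

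Log2 ratios of treat over control were recomputed with pandas 2.3.3 and numpy 2.4.6. A peak listed at 0 in a pool got no ratio. Recomputed ratios matched the deposited ones for total signal and width once 0 was set to 1, and differed by up to 0.275 for height. The calculation was checked on simulated pools. With 1 value per pool there is no spread, no test and no interval, and read depth is unknown. Genes came from a RefSeq table of TAIR10.1, whose coordinates are not printed. A gene took the peak covering most of its body, at least 150 bp. JMJ13 and TIP41 were matched by locus. Named genes were those past 1.5-fold in all 3 measures whose larger total signal reached the median of such values (12 lowest ratios, up to 12 highest), the 6 strongest and 4 longest peaks, the 3 largest ratios per side, the 3 largest ratios per list and 7 fixed genes. The longest peaks of 1 pool, the 4 domains over 5000 bp furthest to each side, other list members at the extremes or past 1.5-fold, and members of the 20 symbol families were added after their values were seen. The peaks, lists and rules were chosen with earlier results of these data known. Alternatives changed the fold, filters, centring, treatment of 0, gene link and use of the deposited false discovery rate. Promoter motifs were not analysed here. One list member and one symbol family are not reported here.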

Additional observations from a re-analysis of the deposited data

Results flagged for a closer look

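A signal outside the nuclear comparison stood apart. The 32 mitochondrial peaks of the H3K27me3 table had a median log2 ratio of 1.62 (treat over control), with a median total signal of 12336 in the treat pool and 4653 in the control pool. Of these, 31 were past 1.5-fold higher and none lower. Of the 32, 18 were treat-only, which fixes their direction, and 14 had a width in both pools. The 38 mitochondrial peaks of the H3K4me3 table had a median of 0.23, with 8774 in the treat pool and 7296 in the control pool. The part of organelle DNA in the nuclear results was not tested.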

How the results depend on the processing

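No paired analysis was possible because the table holds pools and no value per replicate, and leaving out replicates could not be run for the same reason. Of 60 recomputed main results, 41 lay within 1.5 times the count of both directions together or within 0.1 of the median. The direction within such counts can still turn. With the median of all peaks at 0, all 3 measures gave 300 higher and 195 lower, and genes 584 higher and 569 lower. With the upper 25% by mean signal at 0, all 3 measures gave 371 higher and 151 lower, genes 651 higher and 491 lower, and height 2551 higher and 961 lower. The median width ratio turned positive with 0 set to 1. With a fold of 2, the counts were 2442 for total signal, 1909 for height, 851 for width, 104 for all 3 measures and 585 genes, against 3987, 3568, 1400, 513 and 1268 at 1.5-fold. Keeping peaks with mean signal at or above the lower quartile left 1652 for total signal and 1450 for height, with the lower side now larger (610 higher and 1042 lower for total signal). Keeping those whose higher pool passed that quartile left 2209 and 2027, and keeping peaks longer than 200 bp left 2374 and 2072. Setting 0 to 1 gave 4315 for width and 3000 for all 3 measures, the rise for width being the 2915 peaks of 1 pool. Adding the authors' deposited false discovery rate under 0.05 left 775 peaks and 269 genes, and asking for 50% of the gene body left 559 genes. Peaks of 1 pool, 2915 in all, numbered 956 with the quartile filter on the higher pool, 1025 above 200 bp and 139 at 2 times the threshold, alternatives chosen after seeing the data. Of 51 recomputed named-gene ratios 48 moved by more than 0.1, none with a change of sign. Each resetting of the scale subtracts a constant, -0.14 or -0.22, from every ratio, so those moves were fixed in advance. The genes were chosen past 1.5-fold in all 3 measures, so no sign could change. With height in place of total signal, 4 of 11 list medians moved by more than 0.1. With the upper 25% of peaks at 0 the floral identity, flowering-time, root and Polycomb medians turned positive, an alternative added after seeing the data. Unknown depth, unknown scaling and 1 pool per genotype limit every difference.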
